A study of Oryza sativa with 12 samples.

Results

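Loci that a transcript assembler placed on the rice genome but that carry no gene name and no description were followed through heat stress at night. They were taken as every row of the deposited count table whose identifier comes from assembly and whose name and description are both empty. This rule gave 5381 of the 50708 loci in the table, or 10.6%, and used no count of any library. The assembly that gave the identifiers itself rests on sequenced reads. Both lines are rice (Oryza sativa), described by the labels as near-isogenic lines that differ in heat tolerance at grain filling. The 4 groups were the heat-sensitive line XN0437S in control, XN0437S under high night temperature stress, the heat-tolerant line XN0437T in control and XN0437T under the same stress, with 3 libraries of ribosome-depleted total RNA in each. The sources used here give neither temperature nor duration of the treatment and name no organ, so no tissue could be checked against markers. Whether the 3 libraries of a group were made from different plants is not stated either, and p-values refer to the variation among these libraries, part or all of which may be technical.

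An assembler such as StringTie joins overlapping read alignments into transcripts and gives a locus a running identifier when no known gene accounts for it. Loci of this kind can be long noncoding RNAs, antisense transcripts, transposon-derived transcripts, exons or ends of genes missing from the annotation, or fragments of RNA that is not from a nuclear gene. Depletion of ribosomal RNA, unlike selection for poly(A) tails, keeps RNAs without a tail in the library. In plants, heat is known to switch on heat shock genes and to release transcription from some otherwise silent repeats, and noncoding loci near heat-responsive genes are studied as possible companions of that response.

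The unannotated loci were short and often without a strand. Their span from start to end ran from 200 to 79365 bases with a median of 448, against a median of 2156 for the 45327 loci with a name or description. No strand was assigned to 3598 of them (66.9%), against 5.12% of the named loci, while 918 lay on the plus and 865 on the minus strand. Loci without a strand had a median span of 320 bases and loci with one of 1593. An implied transcript length was worked out from counts and FPKM (fragments per kilobase, scaled to library size) where a library had at least 200 counts. Its scale was set on the loci without a strand, so that their median length equals the span. Relative to these, it fell below 0.95 of the span in 607 of 954 loci with a strand. The 0 of 446 loci without a strand below 0.95 is no independent result, because these loci set the scale.

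In position, 362 of the 5381 overlapped a named locus, 1248 lay within 1000 bases of one, 2233 lay farther than that but within 5000 bases and 1538 lay farther off. Of the 362, 192 lay on the strand opposite to the named locus, 71 on the same strand and 98 had no strand, and at the remaining 1 the named locus had no strand. Across all loci of the table, 566 of the unannotated ones overlapped at least 1 other locus, and 22 shared both start and end with another. Counts of such loci may be split between partners.

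Levels were low. Of the 5381 loci, 4822 (89.6%) passed the filter on low counts and were tested, 559 did not, and 11 had no count in any library. Among those tested the median of the mean level was 0.661 FPKM, a scale that corrects for length, against 1.55 FPKM for named loci. Between 4182 and 4755 of the unannotated loci had at least 1 count in a library: 4182 to 4229 in the sensitive control, 4291 to 4368 in the tolerant control, 4607 to 4692 in the sensitive line under stress and 4693 to 4755 in the tolerant line under stress. More of them were detected in every stressed library than in any control library. The same count is not given here for named loci, so this is not shown to be particular to unannotated loci. Library totals, of 85496090 to 100353570 counts, overlapped between the groups, but the scaling factors of edgeR's TMM method, which fall where a few loci take a larger part of the counts, did not: they were 0.838 to 0.981 in control libraries and 1.11 to 1.18 in stressed ones. Their part in the number of loci detected was not tested. In RNA from whole samples, fewer cells of a type and less RNA per cell cannot be told apart.

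The loci together held a large share of all counts, and a few of them held nearly all of it. The share was 21.9%, 17.6% and 21.7% in the libraries of the sensitive control, and 12.1%, 11.9% and 11.5% after stress. In the tolerant line it was 14.3%, 17.8% and 13.2% in control and 12.4%, 10.3% and 9.15% after stress. Stressed libraries thus lay below the control libraries of their own line without overlap, with means of 20.4% ± 2.45 and 11.8% ± 0.312 in the sensitive line and of 15.1% ± 2.41 and 10.6% ± 1.62 in the tolerant line (SD, n = 3). The two-sided exact permutation test gave p = 0.1 in each line, the smallest p that 3 libraries against 3 allow. The lines overlapped in control (exact permutation p = 0.2) and under stress (exact permutation p = 0.4). This share includes MSTRG.5869, which held 0.124% to 4.53% of counts in the sensitive control and 0.0540% to 2.95% in the tolerant control. The share without this locus alone was not compared between the lines, so the overlap does not show that the lines were alike.

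**Figure D1:**
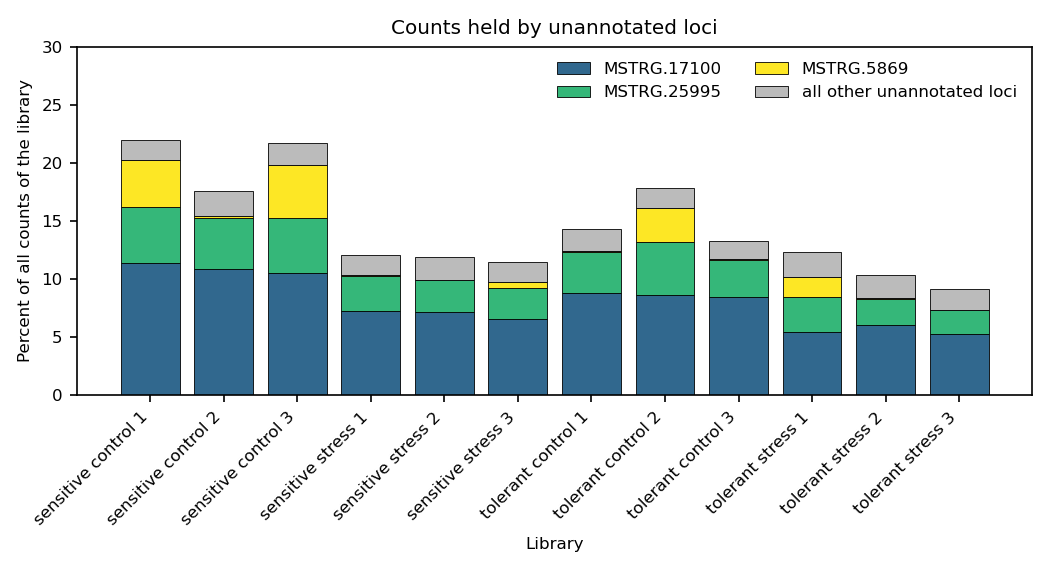
Percent of all counts of each of the 12 libraries (vertical axis) that fell in unannotated loci, split into the 3 loci with the most counts and all others. MSTRG.17100 and MSTRG.25995 make up most of every bar and are lower under stress in both lines, while MSTRG.5869 comes and goes between libraries of 1 group.

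MSTRG.17100, of 417 bases on the minus strand at chr3:29382366-29382782, alone held 10.6% to 11.3% of all counts in the sensitive control and 6.57% to 7.27% after stress. The tolerant line had 8.48% to 8.83% in control and 5.29% to 6.02% after stress. The groups did not overlap within a line, and its level fell by 1.06 ± 0.04 and by 0.95 ± 0.04 on the log2 scale (SE) in the sensitive and tolerant lines, with adjusted p = 2.74e-09 and 4.24e-09 by edgeR's quasi-likelihood test with Benjamini-Hochberg adjustment over all loci. It lies inside MSTRG.17064, a locus of the opposite strand whose name includes an actin gene. Coordinates are as in the deposited table, and the only build named in the submitters' processing notes is mm10, of mouse, so the rice build is unknown. With library totals alone as the scale, the fall was 0.64 and 0.63 on the log2 scale. MSTRG.17100 was also lower in the tolerant than in the sensitive line. The log2 difference was -0.45 in control and -0.34 under stress (adjusted p = 0.000102 and 0.000572 by the same test). With library totals alone it was -0.34 and -0.33 (adjusted p = 0.00304 and 0.00423).

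MSTRG.25995 (chr6:26219986-26220361, minus strand, 376 bases) held 4.43% to 4.85% of counts in the sensitive control and 2.65% to 3.00% after stress. Its share in the tolerant line was 3.19% to 4.62% in control and 2.03% to 3.05% after stress, and it fell in both lines (log2 change -1.15 ± 0.14, adjusted p = 4.58e-05, and -0.94 ± 0.14, adjusted p = 0.000205). With library totals alone the changes were -0.74 and -0.63. A plus-strand partner over the same bases, MSTRG.25996, had no count in 11 of 12 libraries and 50230 in the remaining one, the sensitive control replicate 2.

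The third of these loci, MSTRG.5869 (chr10:19040456-19040775), could not be read by itself. Its counts were 3676879, 110778 and 4120002 in the sensitive control, and 42139, 33150 and 485680 after stress. Those of the tolerant line were 49918, 2761934 and 54185 in control and 1642243, 30302 and 26703 after stress. MSTRG.5868 on the other strand begins at the same base, and where one was high the other was low in most libraries. The sum of the pair took 3.12% to 4.63% of counts in the sensitive control, 1.60% to 2.05% after stress, 2.67% to 3.16% in the tolerant control and 0.0804% to 1.77% after stress, where the lowest library was replicate 2. Neither stress change of MSTRG.5869 passed the test (adjusted p = 0.137 and 0.715).

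The fall of the share rested on a few loci. The 5 loci of the table that held the most counts were left out of both the unannotated loci and the total. The share was then 7.25% ± 3.33 in the sensitive control and 2.79% ± 0.337 after stress (SD, exact permutation p = 0.1). In the tolerant line it was 3.66% ± 2.17 and 3.51% ± 1.54, where the groups overlapped (exact permutation p = 0.9). This share still included MSTRG.5869 and followed it in the sensitive control. Libraries of that group had 8.59%, 3.46% and 9.70%, where MSTRG.5869 held 4.10%, 0.124% and 4.53% of all counts. Without MSTRG.17100, MSTRG.25995 and MSTRG.5869, unannotated loci held 1.92% ± 0.257 of counts in the sensitive control and 1.83% ± 0.115 after stress. The tolerant line had 1.71% ± 0.204 and 1.99% ± 0.176, and control and stressed libraries overlapped in both lines. Without the 10 unannotated loci that held the most counts, the direction turned. The remaining unannotated loci held 1.04% ± 0.0385 of counts in the sensitive control and 1.36% ± 0.0167 after stress, and 1.17% ± 0.0980 in the tolerant control and 1.46% ± 0.0382 after stress. Stressed libraries lay above control libraries in both lines without overlap (exact permutation p = 0.1 in each, the smallest possible). On the same scale of library totals, the median log2 change over all tested loci was 0.46 in the sensitive and 0.37 in the tolerant line. A rise on this scale was thus not particular to unannotated loci, and whether theirs went beyond that of other loci was not tested.

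Among those 10 loci, MSTRG.18272 gave the cleanest fall. This locus of 12878 bases on the plus strand (chr4:4405799-4418676) overlaps no other locus. Its values in CPM (counts per 1000000 of the library, here scaled with edgeR's TMM factors) were 2163, 2198 and 2260 in the sensitive control and 614, 645 and 640 after stress, and 2123, 2143 and 2035 in the tolerant control and 538, 508 and 528 after stress. Control and stressed libraries were far apart in both lines, with log2 changes of -1.80 ± 0.04 (adjusted p = 2.11e-11) and -2.00 ± 0.04 (adjusted p = 6.07e-12). MSTRG.13072 (chr2:28718708-28721147) measured 1936 ± 65.6 CPM in the sensitive control and 2029 ± 215 after stress, and its changes did not pass the test in either line; in the tolerant line its log2 change of -0.04 turned to 0.26 with library totals alone. MSTRG.26026 (chr6:26465330-26469654) had -0.47 ± 0.05 and -0.23 ± 0.05 (adjusted p = 8.55e-06 and 0.00231), but with library totals alone these became -0.05 and 0.09, so its direction depends on the scaling. It overlaps MSTRG.26025, a locus that joins 5 named genes, and reads may have been split between them.

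Heat changed close to 20% of the tested unannotated loci in each line. The test called 943 of 4822 in the sensitive line (19.6%), 584 higher and 359 lower under stress, where 32.1% of all 33281 tested loci were called, 16.3% higher and 15.9% lower. In the tolerant line 625 were called higher and 374 lower, together 20.7%, against 33.2% of all loci, 16.7% higher and 16.6% lower. A call here and below means an adjusted p under 0.05 by edgeR's quasi-likelihood test.

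The calls leaned upward. Of the calls on unannotated loci, 61.9% in the sensitive line and 62.6% in the tolerant line were higher under stress, where the share was 50.6% and 50.2% over all loci. The median log2 change was 0.26 and 0.25 over the tested unannotated loci and 0.04 and 0.05 over all loci. The share depends on the scaling: with library totals alone, the median of all loci moved to 0.46 and 0.37, that of the unannotated loci to 0.67 and 0.56, and the share of calls that were higher to 83.3% and 79.0% for unannotated loci and to 83.6% and 76.8% for all. The upward lean of the calls relative to all loci was thus seen with TMM scaling and was small or absent with totals alone, while the median stayed above that of all loci under both scalings.

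The lower rate of calls went with the lower level. Loci were grouped by mean level over the 12 libraries, and within each group the share called under stress in the sensitive line was close to that of named loci. It was 11.5% of 3353 unannotated against 10.8% of 8820 named loci under 1 CPM, and 34.7% of 1234 against 35.2% of 10702 from 1 to 10 CPM. From 10 to 100 CPM it was 53.3% of 210 against 54.6% of 8086, and at 100 CPM or more 72.0% of 25 against 73.6% of 851. The tolerant line gave 12.7% against 10.8%, 36.1% against 36.9%, 52.9% against 56.1% and 68.0% against 73.2% in the same order. These shares are a description and were not tested.

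**Figure D2:**
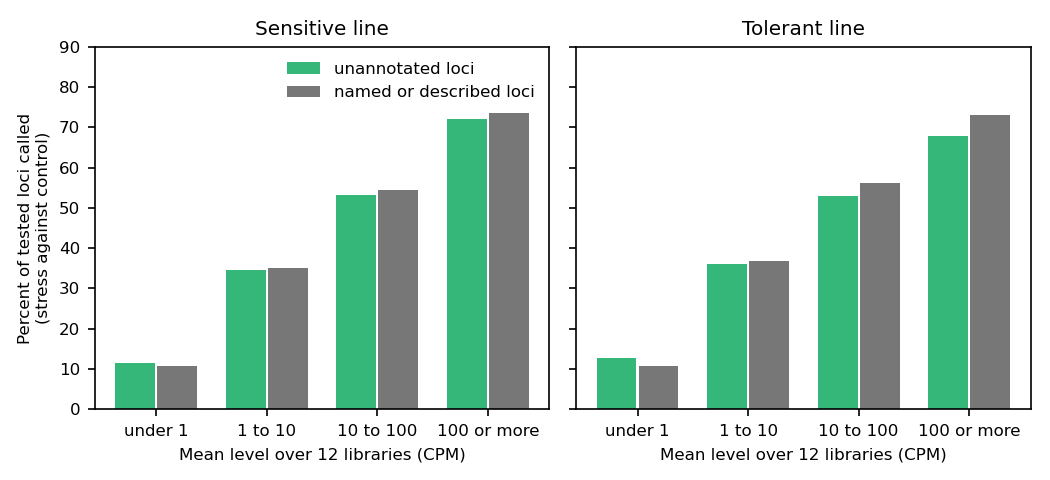
Percent of tested loci called under stress (vertical axis) by mean level in CPM over the 12 libraries (horizontal axis), for unannotated loci and named or described loci in each line. In each level class the paired bars are close, from 11.5% against 10.8% in the lowest to 72.0% against 73.6% in the highest class of the sensitive line.

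The upward lean was seen in the loci under 10 CPM. Under 1 CPM, 276 unannotated loci were higher and 109 lower in the sensitive line, and 300 and 125 in the tolerant line. From 1 to 10 CPM, 251 were higher and 177 lower in the sensitive line, and 273 and 173 in the tolerant line. From 10 to 100 CPM, 51 were higher and 61 lower in the sensitive line, and 46 and 65 in the tolerant line. Named loci under 1 CPM also leaned upward, with 628 higher and 321 lower in the sensitive line and 615 and 338 in the tolerant line. Among loci called alike in both lines, named ones from 1 to 10 CPM had 1474 higher and 1158 lower, and unannotated ones 184 and 122. From 10 to 100 CPM these were 1477 and 2028, and 31 and 45. Named loci thus leaned in the same direction in these classes, and the lean at matched level was not tested. Position made a smaller difference: of tested unannotated loci farther than 5000 bases from a named locus 15.6% were called in the sensitive line, of those overlapping one 23.1%, with median levels of 0.321 and 1.26 CPM.

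The response was shared between the lines at many loci. Of the loci called, 354 were higher in both lines and 231 lower in both, which together is 62.0% of the 943 calls in the sensitive line and 58.6% of those in the tolerant line. Over all tested loci these shares were 71.3% of 10695 and 68.9% of 11059 calls. By level, the unannotated loci had 48.8% and 44.2% under 1 CPM, against 40.6% and 40.4% for named loci, and 71.5% and 68.6% from 1 to 10 CPM, against 69.9% and 66.7%. From 10 to 100 CPM they had 67.9% and 68.5%, against 79.4% and 77.3%. These shares are a description and were not tested. A further 4 were called in both but in opposite directions. The other 354 calls of the sensitive line and 410 of the tolerant line were made in 1 line alone, but the difference of the responses itself passed its own test at 4 and 28 of these, and over all loci at 138 of 2995 and 206 of 3359. Over the 1469 loci with a mean of at least 1 CPM, the log2 changes of the 2 lines had a Pearson correlation of 0.69, and over 19639 named loci of the same level 0.79. These correlations are across loci, which are not independent replicates, and the 2 lines shared no library.

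**Figure D3:**
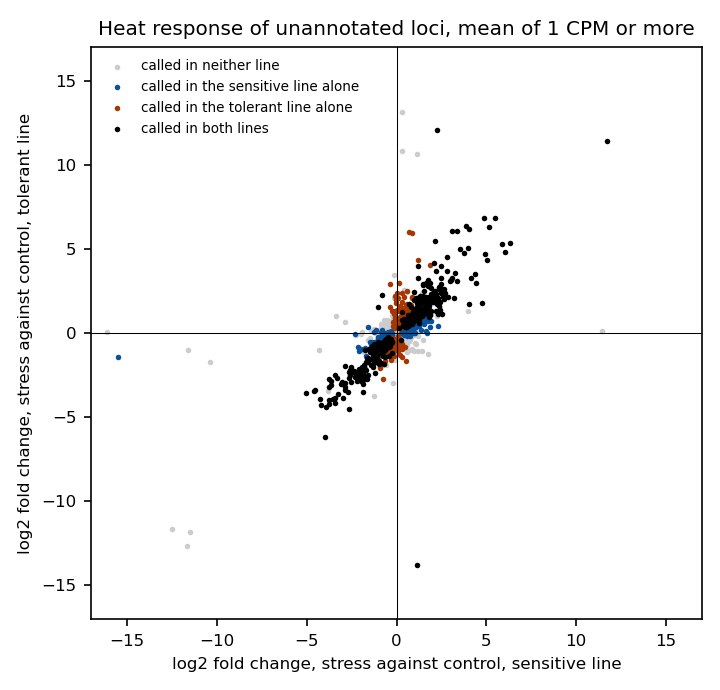
log2 fold change under stress in the sensitive line (horizontal axis) and in the tolerant line (vertical axis), 1 point for each of 1469 unannotated loci with a mean of 1 CPM or more, coloured by the line in which it was called. Most loci called in both lines lie along the rising diagonal, and the isolated point near -14 on the vertical axis is MSTRG.20786.

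Several named loci had no count in any control library and were called higher under heat in both lines. They were named for the largest fitted changes, and a control group at 0 makes the fitted change large. How many of all tested loci had this pattern is not given here, so it is not shown to be particular to unannotated loci. MSTRG.25052 (chr6:12268481-12270121, plus strand, 1641 bases) had 0 counts in all 6 control libraries, and 485, 515 and 419 in the stressed sensitive line and 388, 331 and 428 in the stressed tolerant line. Against a floor of 12 counts per library (3 fragments, with 4 counts taken for each) this is at least 28.6-fold and at least 25.7-fold higher, with adjusted p = 4.41e-07 and 3.7e-07. It overlaps no other locus, and the nearest named one, LOC_Os06g21230, described in the table as a glycine-rich protein, lies 3357 bases off.

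On the same chromosome, MSTRG.25061 (chr6:12362734-12364236, plus) and MSTRG.25060 (chr6:12362681-12364144, minus) overlap each other on opposite strands. MSTRG.25061 had 0 counts in every control library, 259, 50 and 125 in the stressed sensitive line and 193, 270 and 41 in the stressed tolerant line. MSTRG.25060 had 8 counts in 1 of 6 control libraries and 56 to 298 under stress. Both were called in both lines, but reads of the pair may have been split between them.

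A further 4 of the named loci without a count in any control library were called in both lines. MSTRG.10190 (chr12:27058472-27058852) had 37, 183 and 100 counts in the stressed sensitive line and 141, 70 and 63 in the stressed tolerant line, at least 6.38-fold and at least 6.16-fold higher (adjusted p = 0.000634 and 0.000588). The nearest named locus, 1376 bases off, is described as OsGRP1. The other 3 lie on chromosome 3. MSTRG.15671 (chr3:12269378-12270634), 752 bases from an acid phosphatase gene, had 110, 98 and 105 counts in the stressed sensitive line and 161, 211 and 148 in the stressed tolerant line. MSTRG.14266 (chr3:2052125-2053946), 1495 bases from a gene described as protein phosphatase 2C 28 (enzymes of this family include negative regulators of abscisic acid signalling), had 48, 62 and 60 and then 134, 148 and 206 counts. MSTRG.17390 (chr3:31807147-31808272) had 70, 111 and 132 and then 189, 115 and 175 counts. In the sensitive line MSTRG.15671 was at least 6.31-fold higher (adjusted p = 3.25e-05), MSTRG.14266 at least 3.42-fold (adjusted p = 0.000129) and MSTRG.17390 at least 6.28-fold (adjusted p = 6.76e-05). Bounds for the tolerant line were 11.7-fold, 10.9-fold and 10.7-fold (adjusted p = 1.5e-05, 3.5e-05 and 3.44e-05). For none of these 4 loci was the difference between the lines under stress called (adjusted p = 0.18 or more).

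MSTRG.23253 and MSTRG.18350 were close to 0 in control. MSTRG.23253 (chr5:24652684-24653813, plus) measured 0.105, 0.0525 and 0 CPM in the sensitive control and 3.09, 3.88 and 3.59 after stress, and 0.179, 0.139 and 0.0945 CPM in the tolerant control and 3.71, 4.87 and 3.29 after stress. Its log2 changes were 6.03 ± 0.56 (adjusted p = 3.88e-06) and 4.84 ± 0.49 (adjusted p = 8.04e-06). MSTRG.18350 (chr4:6267230-6268700, minus), 3168 bases from a gene described as the F-box protein CPR1, rose from 0.0743 ± 0.0619 to 3.37 ± 0.931 CPM in the sensitive line and from 0.0238 ± 0.0413 to 2.90 ± 0.533 CPM in the tolerant line. No stressed library overlapped a control library at either locus. In the sensitive line this was a condition for naming them, while in the tolerant line it was not.

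Loci that heat lowered were in part well above the detection limit in control. MSTRG.18550 (chr4:9217505-9221262, plus strand, 3758 bases) measured 20.01, 19.1 and 18.8 CPM in the sensitive control and 0.489, 0.570 and 0.715 after stress. In the tolerant line it measured 20.6, 19.1 and 18.4 CPM in control and 1.46, 1.92 and 1.61 after stress. The log2 change was -5.02 ± 0.16 in the sensitive line (adjusted p = 4.25e-10) and -3.54 ± 0.15 in the tolerant line (adjusted p = 2.46e-09). All 3 stressed tolerant libraries lay above all 3 stressed sensitive ones, and the difference of the responses was 1.48 ± 0.20 (adjusted p = 0.00158). The nearest named locus, 8668 bases off, is described as a chloroplast photosystem II protein.

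MSTRG.22297 (chr5:15403850-15458204, plus, 54355 bases) moved alike, from 14.1, 11.9 and 12.7 CPM to 0.586, 0.439 and 0.621 in the sensitive line. The tolerant line went from 14.0, 13.4 and 13.5 CPM to 1.17, 1.48 and 1.30. Its log2 changes of -4.55 ± 0.16 (adjusted p = 9.89e-10) and -3.37 ± 0.15 (adjusted p = 4.83e-09) also differed between the lines, by 1.18 ± 0.21 (adjusted p = 0.00877). It lies within a pair of long loci whose names include prolamin genes, the storage proteins of the rice endosperm, so its counts are uncertain. Both of these loci had far higher levels and also fell. MSTRG.22294 went from 1102 ± 372 to 250 ± 41.7 CPM in the sensitive line and from 1447 ± 78.9 to 288 ± 24.9 CPM in the tolerant line. MSTRG.22295 went from 1147 ± 278 to 262 ± 18.4 CPM and from 1770 ± 208 to 363 ± 37.9 CPM. Whether the fall of MSTRG.22297 is separate from theirs was not tested.

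MSTRG.26328 (chr6:29092097-29092587, no strand, 491 bases, 11790 bases from the nearest named locus) fell to about the same level in both lines. It measured 13.9, 13.2 and 12.8 CPM in the sensitive control and 0.479, 0.748 and 0.857 after stress, and 14.5, 14.7 and 15.7 CPM in the tolerant control and 1.30, 0.819 and 0.873 after stress. The log2 changes were -4.25 ± 0.23 (adjusted p = 2.96e-08) and -3.90 ± 0.22 (adjusted p = 3.28e-08), and their difference of 0.35 ± 0.29 did not pass the test (adjusted p = 0.662). MSTRG.22051 (chr5:11525149-11525526), 32005 bases from the nearest named locus, went from 8.42 ± 1.48 to 0.351 ± 0.254 CPM in the sensitive line and from 9.30 ± 0.920 to 0.869 ± 0.200 CPM in the tolerant line. Its stressed libraries lay below all control libraries in both lines, which in the sensitive line was a condition for naming it.

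**Figure D4:**
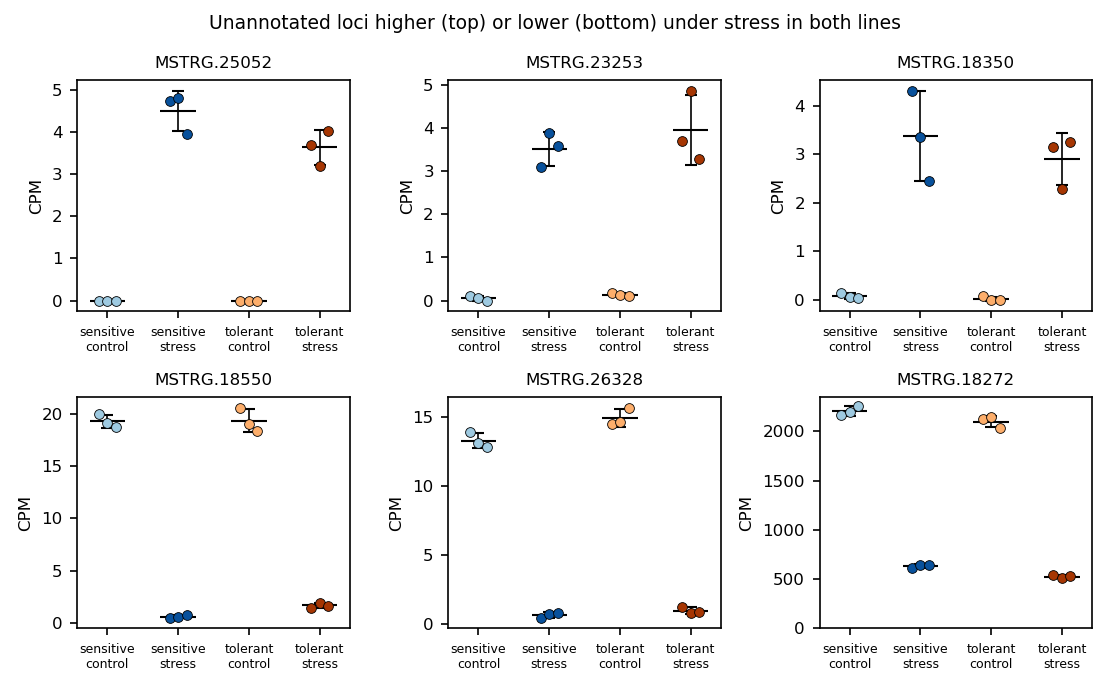
Level in CPM (vertical axis, linear) of 6 unannotated loci in each library of the 4 groups, with the mean and SD of 3 libraries as bars. MSTRG.25052, MSTRG.23253 and MSTRG.18350 sit near 0 in control and rise under stress, and MSTRG.18550, MSTRG.26328 and MSTRG.18272 fall, with no stressed library among the control libraries of its line. All but MSTRG.18272 were named by a rule that required this in the sensitive line, and MSTRG.25052 in both lines.

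Neighbours of heat shock genes were few. Within 2000 bases of the 163 loci whose name or description holds heat shock, HSP, chaperone or DnaJ there were 10 unannotated loci, of which 7 were tested. Of these, 1 was called higher in the sensitive line and 3 in the tolerant line, and 0 were called lower by edgeR, where 16.3% and 16.7% of all tested loci were called higher. MSTRG.20990 (chr4:34468639-34488059, plus, 19421 bases) was called in both. It measured 143, 134 and 149 CPM in the sensitive control and 183, 186 and 182 after stress, and 165, 161 and 160 CPM in the tolerant control and 217, 219 and 232 after stress. Stressed libraries lay above control libraries in both lines, by 0.37 ± 0.05 (adjusted p = 0.000127) and 0.46 ± 0.05 (adjusted p = 1.9e-05) on the log2 scale. The gene 1860 bases away on the same strand, LOC_Os04g57880, described as a chloroplast DnaJ C76 co-chaperone, changed by 3.09 ± 0.46 and 2.32 ± 0.43 (adjusted p = 0.000218 and 0.00113), from 0.503 ± 0.221 and 1.10 ± 0.388 CPM in control. With library totals alone, the changes of MSTRG.20990 were 0.79 and 0.77. At MSTRG.5528 (chr10:15671201-15671950, no strand) the neighbour had the opposite sign. MSTRG.5528 changed by 0.76 ± 0.16 in the tolerant line (adjusted p = 0.00316), while the locus 1178 bases off, whose names join a starch synthase gene and a class II small heat shock protein gene (LOC_Os10g30162), had -0.36 ± 0.10 (adjusted p = 0.0123). These were 1.07 with library totals alone (adjusted p = 0.000324) and -0.04 (adjusted p = 0.767), so the call on the neighbour was lost.

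More widely, unannotated loci within 1000 bases of a named locus mostly moved with it where both were called. In the sensitive line 79 such pairs were called at both members, 59 in the same direction and 20 in opposite directions, or 74.7% the same. The tolerant line had 85 such pairs, 63 in the same and 22 in opposite directions, or 74.1%. Between named loci at this distance the share was 60.9% and 62.2%. For unannotated loci that overlap a named one it was 80.6% of 36 pairs and 68.4% of 38 pairs, against 69.2% and 69.6% between overlapping named loci. These are counts of loci and were not tested, and whether neighbours are separate transcripts is not known from the table.

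Between the lines, few unannotated loci differed. In control 109 of 4822 were called (2.26%), 63 higher and 46 lower in the tolerant line, where 5.42% of all loci were called, 2.53% higher and 2.89% lower. Under stress 69 were called (1.43%), 51 higher and 18 lower in the tolerant line, where 3.40% of all loci were called, 1.71% higher and 1.69% lower. The difference of the responses was called at 57 loci (1.18%), against 2.61% of all (1.27% positive and 1.34% negative), with 39 more positive and 18 more negative in the tolerant line. No unannotated locus had counts in all 6 libraries of one line, with at least 120 in sum, and none in the other line. Of the 45327 named loci, 1 met this rule for the sensitive line (0.0022%) and 0 for the tolerant line, so such loci were rare throughout. The numbers of calls move with the tool: DESeq2 called 254 for the lines in control, 118 under stress and 148 for the difference of responses. Over all loci the calls rose as well, from 1804 to 3029, from 1132 to 1955 and from 867 to 1752.

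**Figure D5:**
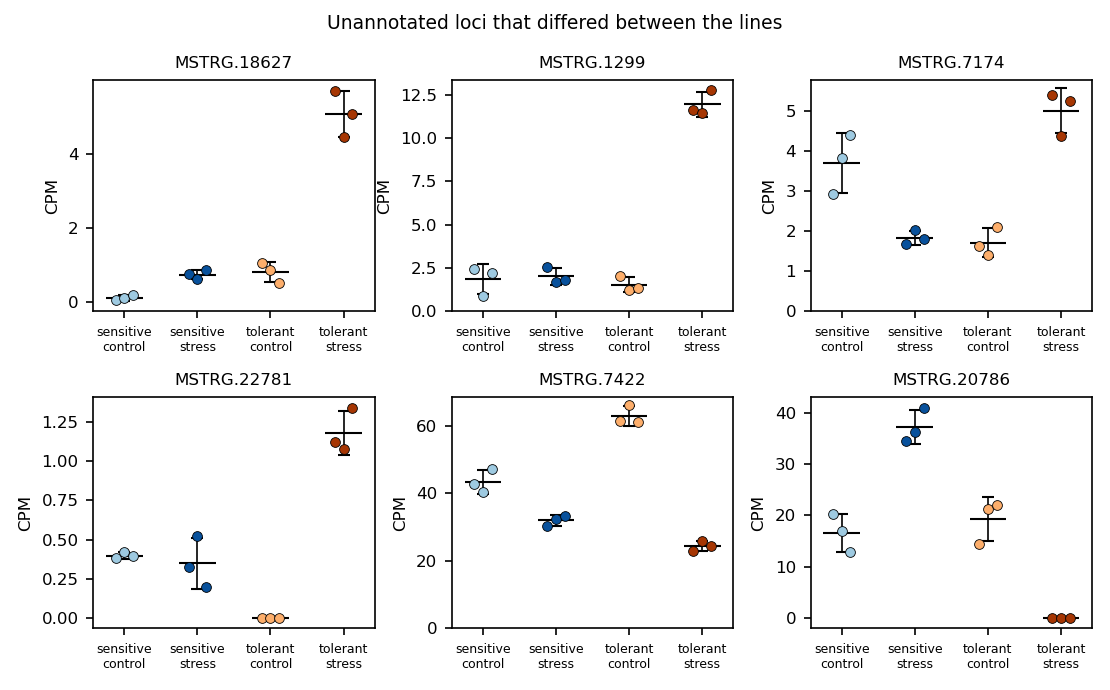
Level in CPM (vertical axis, linear) of 6 unannotated loci in each library of the 4 groups, with the mean and SD of 3 libraries as bars. The tolerant stressed libraries stand above all others at MSTRG.18627, MSTRG.1299 and MSTRG.22781 and at 0 at MSTRG.20786, while the response at MSTRG.7174 runs in opposite directions in the lines. MSTRG.18627, MSTRG.1299 and MSTRG.20786 were named by a rule that required no overlap between the lines under stress.

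In control, MSTRG.7174 (chr11:8875669-8879121, minus, 3453 bases) was higher in the sensitive line and moved in opposite directions under heat. It measured 2.91, 3.82 and 4.39 CPM in the sensitive control and 1.68, 2.02 and 1.79 after stress. In the tolerant line it measured 1.62, 1.39 and 2.102 CPM in control and 5.40, 4.36 and 5.24 after stress. The control and stressed libraries did not overlap in either line, with log2 changes of -1.02 ± 0.21 (adjusted p = 0.00248) and 1.55 ± 0.21 (adjusted p = 9.77e-05) and a difference of 2.57 ± 0.30 (adjusted p = 0.000531). With library totals alone the changes were -0.60 and 1.88.

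MSTRG.13071 and MSTRG.13073 flank MSTRG.13072 on chromosome 2 and were both higher in the tolerant control. MSTRG.13071 (chr2:28715347-28716652, minus) measured 7.69, 8.04 and 16.3 CPM in the sensitive control and 84.4, 25.5 and 38.7 in the tolerant control, and 137 to 217 and 115 to 238 CPM after stress. The line difference in control was 2.21 ± 0.44 on the log2 scale (adjusted p = 0.0115), and the call was lost without the sensitive control replicate 2 (2.04, adjusted p = 0.0513). MSTRG.13073 (chr2:28721403-28721986, no strand) went from 4.13, 3.63 and 6.17 CPM in the sensitive control to 17.02, 18.9 and 7.78 after stress, while the tolerant line gave 16.7, 13.8 and 13.1 CPM in control and 20.2, 14.4 and 13.2 after stress. The sensitive control was thus the low group, by 1.65 ± 0.30 against the tolerant control (adjusted p = 0.00781). MSTRG.13071 overlaps the opposite-strand MSTRG.13070, so its counts may be split.

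Some loci stood highest in the stressed tolerant line. MSTRG.1299 (chr1:12005078-12006490, no strand), 2154 bases from a locus described as a putative polyprotein, a kind of product that retrotransposons encode, measured 0.866 to 2.55 CPM in the 9 other libraries. It measured 11.6, 11.4 and 12.8 CPM in the stressed tolerant line, a change of 2.96 ± 0.34 on the log2 scale (adjusted p = 2.36e-05). The sensitive line changed by 0.12 ± 0.33 (adjusted p = 0.823), and the responses differed by 2.84 ± 0.47 (adjusted p = 0.00592). MSTRG.21996 (chr5:10647507-10647891, minus) had 1.53, 1.23 and 1.86 CPM there and 0.0655 to 0.603 CPM elsewhere, with a difference of the responses of 4.24 ± 0.79 (adjusted p = 0.0125).

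MSTRG.18627 (chr4:10660375-10660850, plus, 476 bases) rose in both lines and was higher in the tolerant line throughout. It measured 0.0524, 0.105 and 0.197 CPM in the sensitive control, 0.753, 0.627 and 0.857 after stress, 1.06, 0.869 and 0.520 in the tolerant control and 5.69, 4.43 and 5.07 after stress. The tolerant line stood 2.78 ± 0.41 above the sensitive one in control (adjusted p = 0.00204) and 2.76 ± 0.36 under stress (adjusted p = 0.000912) on the log2 scale. The stress changes were 2.64 ± 0.41 and 2.63 ± 0.36, and their difference of -0.01 did not pass the test (adjusted p = 1).

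MSTRG.22781 (chr5:20674164-20674956, plus), 3045 bases from a gene described as NAC domain-containing protein 48-like (NAC proteins are plant transcription factors), had 29, 32 and 30 counts in the sensitive control and 33, 56 and 21 after stress. In the tolerant line it had 0, 0 and 0 counts in control and 118, 112 and 143 after stress. This is at least 8.37-fold higher under stress in the tolerant line (adjusted p = 1.32e-05), and the difference of the responses passed the test (adjusted p = 0.000818). MSTRG.23084 (chr5:23459655-23460889, plus) was also at 0 in all tolerant control libraries, with 666, 600 and 554 counts after stress, at least 40.9-fold higher (adjusted p = 2.51e-05). In the sensitive line it went from 8, 105 and 68 counts to 420, 368 and 405.

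MSTRG.20786 (chr4:32878401-32879692, no strand, 1292 bases) showed the opposite. It had 1545, 1289 and 978 counts in the sensitive control, 3536, 3880 and 4359 after stress, 1206, 1837 and 1874 in the tolerant control, and 0 in all 3 stressed tolerant libraries. It was at least 326-fold lower in the tolerant than in the sensitive line under stress (adjusted p = 2.2e-07) and at least 169-fold lower than in the tolerant control (adjusted p = 4.55e-09). It lies within MSTRG.20784 on the plus strand, which had 637, 637 and 12 counts in those libraries and 0 to 737 in the others, and whether reads were assigned to another locus was not tested.

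At 2 loci of higher level the tolerant line had the more negative response. MSTRG.7422 (chr11:14543238-14547216, plus) measured 42.7, 40.4 and 47.2 CPM in the sensitive control and 30.2, 32.5 and 33.4 after stress, and 61.4, 66.3 and 61.0 CPM in the tolerant control and 22.8, 25.7 and 24.5 after stress. The tolerant line was above the sensitive one in control and below it under stress, in every library, and the responses differed by -0.93 ± 0.11 (adjusted p = 0.000777). MSTRG.2559 (chr1:27934147-27934820, minus) did likewise, with 29.6 ± 2.23 and 25.3 ± 3.09 CPM in the sensitive line and 40.5 ± 2.74 and 18.6 ± 1.45 CPM in the tolerant line. Its responses differed by -0.90 ± 0.14 (adjusted p = 0.00524), and the fall in the sensitive line alone did not pass the test (-0.22 ± 0.10, adjusted p = 0.117). With library totals alone the changes in the sensitive line were -0.02 at MSTRG.7422 and 0.19 at MSTRG.2559, so its direction at MSTRG.2559 depends on the scaling, while those in the tolerant line were -1.05 and -0.81.

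Strand partners limit what single values mean. MSTRG.568 and MSTRG.569 share both ends at chr1:4646345-4648447 on opposite strands. Their counts were the same in 10 of the 12 libraries, and in the sensitive line under stress replicate 2 one had 9248 counts and the other 0. MSTRG.568 rose from 21.1 ± 4.07 to 86.0 ± 2.38 CPM in the sensitive line and from 11.3 ± 0.627 to 58.2 ± 1.78 CPM in the tolerant line, but the strand of these reads cannot be told from the table. MSTRG.12393 shares its ends with MSTRG.12392 on chromosome 2, and its counts ran from 0 to 146265 within the sensitive stressed group alone.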

How the data were processed

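Total RNA of 12 rice libraries was sequenced after depletion of ribosomal RNA, per the labels' protocols, with second strands marked by dUTP. The deposited table holds a whole-number count for every locus and library, per the file headers, and values that the authors name FPKM, per the file headers; FPKM is listed as 0.0001 where the count is 0. The submitters' processing notes list StringTie 2.1.6, HISAT2 2.2.1, cutadapt 1.9, edgeR and DESeq2 without roles. They name mm10, a mouse build, while locus names are those of rice, so coordinates are printed as deposited and their build is unknown.

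Counts of all loci were tested in edgeR 4.0.16 (R 4.3.3) by the quasi-likelihood test, with TMM factors, filterByExpr and 4 group means (8 residual degrees of freedom). Benjamini-Hochberg adjustment ran over 33281 loci, and a call is an adjusted p under 0.05. The SE of a log2 change is its size divided by the square root of edgeR's F, which is less reliable for changes near 0 and low counts. Library totals ran from 85496090 to 100353570 counts. Of counts from 1 to 20 in unannotated loci, 36.8% were multiples of 4, so 1 sequenced fragment may give more than 1 count and small values are less certain than they look. The floor of 12 counts covers counting error only. No pair of replicates had identical values.

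Distances run to the nearest locus with a name or description. Loci named in the text come from a rule: the 10 with the highest mean CPM, the 8 called with the largest change in each direction per stress comparison, 6 per comparison of lines and 4 for the difference of responses (mean of at least 1 CPM in the higher group, no overlap), those within 2000 bases of heat shock loci called in both lines, and the 4 longest. It gave 70 loci. Loci beside or overlapping these (MSTRG.25996, MSTRG.5868, MSTRG.569 and others) were named after their values were seen. The members and the lists were chosen with earlier results of these data known. Alternatives were DESeq2 1.42.0, library totals alone, no filter, a replicate block, limma 3.58.1 on log2(FPKM + 1) and log2(FPKM + 0.1) at a mean FPKM of at least 0.1, each library left out, loci free of overlap and, added after seeing the data, counts divided by 4. The fit was also run on simulated counts with the same spread setting for all loci. It recovered 43 of 100 2-fold changes and 94 of 100 4-fold changes, and called 5 unchanged loci. The spread of the real libraries was not matched, so these rates need not hold for them.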

Additional observations from a re-analysis of the deposited data

Results flagged for a closer look

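The response to stress differed between the lines, by a test of the difference itself (tolerant minus sensitive, log2 scale, edgeR's quasi-likelihood test with Benjamini-Hochberg adjustment), at 15 of the 70 named loci. Because 8 of these loci were named for this difference, the 15 are no measure of how common it is; over all tested unannotated loci it was 57 of 4822.

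The tolerant response was the more positive at 10 loci. Where a group was at 0 the fitted size depends on the prior count and is no measure of fold. This holds for MSTRG.22781 (9.97), MSTRG.23084 (9.81) and MSTRG.5454 (5.49). MSTRG.5454 (chr10:14722272-14723184) had 122, 105 and 71 counts in the sensitive control and 0 after stress, and 97, 158 and 190 in the tolerant control and 13, 8 and 4 after stress. It fell in both lines, and its call on the difference (adjusted p = 0.0308) was lost without any 1 of 9 libraries. The other values were 5.10 for MSTRG.9418, 4.24 for MSTRG.21996, 2.84 for MSTRG.1299, 2.57 for MSTRG.7174, 1.48 for MSTRG.18550, 1.18 for MSTRG.22297 and 0.50 for MSTRG.31299. MSTRG.31299 lies across 2 named loci of far higher counts, and its levels were 354 ± 7.33 and 341 ± 6.73 CPM in the sensitive line and 257 ± 38.1 and 349 ± 15.1 CPM in the tolerant line (SD, n = 3). Its difference was 0.41 with library totals alone, and the call was lost (adjusted p = 0.0755). The call on MSTRG.9418 was lost with limma on FPKM, at 0.66 (adjusted p = 0.143, pseudocount 1) and 2.29 (adjusted p = 0.0795, pseudocount 0.1).

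The tolerant response was the more negative at 5 loci. The values were -14.97 for MSTRG.20786, where the stressed tolerant libraries were at 0, -1.13 for MSTRG.23220, -0.93 for MSTRG.7422, -0.90 for MSTRG.2559 and -0.86 for MSTRG.17611. MSTRG.17611 (chr3:33304506-33305952) went from 38.1 ± 6.53 to 19.9 ± 2.34 CPM in the sensitive line and from 38.3 ± 1.24 to 11.0 ± 0.494 CPM in the tolerant line. MSTRG.23220 went from 6.98 ± 0.944 to 1.89 ± 0.400 CPM and from 12.5 ± 1.22 to 1.54 ± 0.0468 CPM, and its call was lost without any 1 of 9 libraries (adjusted p up to 0.0678).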

How the results depend on the processing

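Counts of calls in the sensitive and tolerant stress comparisons stayed within 1.5 times of their main values with DESeq2, library totals, no filter, counts divided by 4 and loci free of overlap. limma on FPKM called 1478 and 1587 (pseudocounts 1 and 0.1) in the sensitive line and 1664 and 1645 in the tolerant line, with library size as the only scaling. Over all loci it called 13335 and 13571 in the sensitive line, against 10695 in the main fit. In the tolerant line it called 13355 and 13263 of all loci, against 11059. For the lines in control (109), DESeq2 called 254 and FPKM with pseudocount 0.1 called 173. Over all loci these were 1804, 3029 and 2005. For the lines under stress (69), DESeq2 called 118 and FPKM 179 and 109, and over all loci these were 1132, 1955, 1524 and 1203. For the difference of responses (57), DESeq2 called 148 and FPKM with pseudocount 1 called 114. Over all loci these were 867, 1752 and 1141. With 1 library left out, calls ran from 712 to 931, 789 to 1029, 70 to 101, 46 to 70 and 36 to 57 in that order of comparisons. The call count for the lines in control was 70 without the tolerant control replicate 1, and that for the difference was 36 without the sensitive stress replicate 1. Leaving out a library also leaves fewer libraries to the test.

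Deviations of libraries with the same replicate number correlated from -0.0335 to 0.0518, and 0 of 18 pairs exceeded 0.1, the value required here for pairing. Pairs with different numbers ran from -0.0362 to 0.0499. Between sensitive control and sensitive stress, pairs with the same number had 0.0518, 0.0424 and 0.0405, and those with different numbers -0.0289 to -0.0139. Whether this marks a weak pairing in that line was not tested. With a replicate block the counts were 807, 885, 85, 57 and 40, and 7 of the 81 calls on named results were lost.

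The share of counts in unannotated loci was 1.04%, 1.36%, 1.17% and 1.46% (sensitive control, sensitive stress, tolerant control, tolerant stress) without the 10 loci with the most counts, and 30.6%, 16.3%, 20.4% and 14.3% when the 5 loci with the most counts in the table left the denominator alone, a ratio whose numerator still holds those of them that are unannotated. With 1 library left out it ran from 19.6% to 21.8%, 11.7% to 12.001%, 13.8% to 16.1% and 9.74% to 11.3%. Without the sensitive stress replicate 1, 1 unannotated locus had counts in the sensitive line alone; otherwise it was 0, and 0 to 0 in the tolerant line.

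Of 81 named results that were called, 59 kept direction and call under every alternative. Calls were lost without at least 1 library at 9 of 12 for the lines in control and 4 of 12 under stress, 1 of 24 and 2 of 25 for stress in the sensitive and tolerant lines, and 2 of 8 for the difference. The direction turned in these cases, and the cause was not tested: in the tolerant line under stress, MSTRG.5869 ran from -5.35 to 3.13 over left-out libraries, the latter without the tolerant control replicate 2; MSTRG.13072 was 0.26 with library totals, 0.33 and 0.34 with FPKM and -0.24 to 0.22 over left-out libraries, the latter without the tolerant control replicate 1; MSTRG.12393 ran from -0.25 to 1.72 and MSTRG.29548 from -0.35 to 1.03, both lowest without the tolerant stress replicate 1; MSTRG.26026 was 0.088, 0.10 and 0.10 with library totals and FPKM. In the sensitive line MSTRG.31299 was 0.36, 0.36 and 0.36 under the same settings, and the difference at MSTRG.5454 was -0.15 with FPKM and pseudocount 1. Many loci lie near the count floor, which limits what a single count of 0 shows.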

Other observations

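MSTRG.2563 (chr1:27948028-27954257, plus, 6230 bases) had 1570, 1477 and 1752 counts in the stressed tolerant line, and 218, 0 and 10 in the tolerant control. In the sensitive line it had 8, 0 and 0 counts in control and 0, 8 and 33 after stress. The stressed tolerant libraries thus stood apart from all others, with a line difference under stress that passed the test (adjusted p = 0.02 by edgeR). That call, and no overlap between the lines under stress, were conditions for naming this locus. The call was lost without the sensitive stress replicate 1 (adjusted p = 0.0785) or 2 (0.0916) or the tolerant stress replicate 1 (0.0525) or 3 (0.0532). MSTRG.2563 shares its start with the opposite-strand MSTRG.2562, which had 768, 1080 and 943 counts in the stressed sensitive line and 0, 284 and 0 in the stressed tolerant line. The sum of the pair was 7.51, 10.17 and 9.19 CPM in the stressed sensitive line and 14.97, 16.96 and 16.44 in the stressed tolerant line. On this sum the lines stayed apart under stress, but by far less than at MSTRG.2563 alone. Reads of the pair may have been split between them, and the sum was not tested.

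The 4 longest tested loci spanned 36808 to 79365 bases, and 3 of them had a mean under 1.2 CPM in every group: MSTRG.29548, MSTRG.19458 and MSTRG.15807. MSTRG.29548 overlaps MSTRG.29542 and MSTRG.19458 overlaps MSTRG.19457 and MSTRG.19459, so their counts may be split. MSTRG.19458 was called in the sensitive line (2.34 ± 0.83, adjusted p = 0.048 by edgeR), and that call was lost without any 1 of 10 libraries. MSTRG.22297 is the only one of the 4 with a mean above 10 CPM in both control groups.

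MSTRG.25372 (chr6:16748313-16748886, no strand), 2651 bases from a gene described as a ubiquitin-like-specific protease, was lowered by heat in both lines. It had 181, 174 and 166 counts in the sensitive control and 4, 32 and 10 after stress, and 351, 303 and 290 counts in the tolerant control and 4, 8 and 4 after stress. The log2 changes were -3.96 ± 0.52 and -6.15 ± 0.60 (adjusted p = 8.53e-05 and 5.11e-06 by edgeR), and their difference did not pass the test (adjusted p = 0.177).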
